A study of Saccharomyces cerevisiae with 222 samples.

Results

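The genes described here are 10 genes of gluconeogenesis and the glyoxylate shunt in budding yeast: SIP4, CAT8, ADR1, ACS1, ICL1, MLS1, PCK1, FBP1, MDH2 and SFC1. They were taken by symbol from the row names of the mitotic count table and found in the other tables by their SK1 identifiers, 1 row each among the 5818 genes of every table. They were picked by name and by no cut on measured values, though with earlier results of these data known. All 10 genes passed the filter on low counts in each of the 4 experiments, so none is missing from any test.

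RNA was sequenced from SK1 cells, a strain background that enters meiosis efficiently, in 222 libraries from 74 conditions with 3 libraries per condition. Ume6 is a DNA-binding protein that keeps early meiotic genes off during growth and, once bound by the activator Ime1, turns them on at the start of meiosis. In the mitotic experiment, the control strain carried UME6-AID-3V5 (Ume6 fused to an auxin-inducible degron) and LexA-ER-B112, and the Ume6 depletion strain carried in addition 4xLexO-TIR, the receptor that lets auxin trigger Ume6 degradation. Log phase cells in rich glucose medium (YPD) received β-estradiol at -30 min and 200 µM auxin at 0 min, and were collected at -30, 0, 15, 30, 60 and 120 min. WT (UME6) and ume6Δ cultures were collected once. Their labels name both chemicals as treatment, while the study's methods place their collection before treatment. WT carried neither the tag nor the LexA construct, so WT and control differ in strain as well as in handling.

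The meiotic experiment used UME6-AID-3V5 with lexA-ER-GAL4AD, with 8xlexO-OsTIR (Ume6 depletion) or without it (control), in strains whose IME1 and IME4 sit behind a copper-inducible promoter. These cells were moved from acetate-based presporulation medium to sporulation (SPO) medium, received 5 nM β-estradiol and 200 µM auxin at 0.5 h and 50 µM CuSO4 after the 2 h collection, and were collected at 6 times from 0.5 to 6 h. In the tethering experiment, strains carried IME1 or sfGFP-IME1 together with UME6, UME6-3V5, UME6(T99N)-3V5 or UME6(T99N)-3V5-aGFP, and were collected at 0, 2, 4 and 6 h in SPO. The T99N change weakens the binding of Ume6 to Ime1, and aGFP is a nanobody that binds GFP, so that sfGFP-IME1; UME6(T99N)-3V5-aGFP cells (here "tethered") bring Ime1 back to Ume6 and IME1; UME6(T99N)-3V5-aGFP cells ("untethered") do not. In the activation domain experiment, all strains carried UME6(T99N)-3V5-aGFP, lacked the native IME1 gene and expressed IME1, sfGFP-IME1, B112 or sfGFP-B112 from the IME1 promoter, again at 0, 2, 4 and 6 h. B112 is a bacterial peptide that works as an activation domain in yeast.

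Gluconeogenesis rebuilds hexose phosphates when cells live on ethanol or acetate, and the glyoxylate shunt supplies its carbon by turning acetyl-CoA into malate and succinate without losing CO2. Cat8 and Sip4 are zinc cluster activators that bind the carbon source-responsive element (CSRE), and Adr1 is a zinc finger activator of genes for ethanol, glycerol and fatty acid use. Acs1 (acetyl-CoA synthetase) charges acetate, Icl1 (isocitrate lyase) and Mls1 (malate synthase) carry out the shunt, Sfc1 exchanges succinate and fumarate across the mitochondrial membrane, Mdh2 is the cytosolic malate dehydrogenase, Pck1 (phosphoenolpyruvate carboxykinase) commits oxaloacetate to gluconeogenesis, and Fbp1 (fructose-1,6-bisphosphatase) catalyses a late step. In glucose these genes are repressed, and acetate medium, in which yeast is prepared for meiosis, induces them.

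Upstream sequences are shown for the genes that hold a match to the core of URS1, the element Ume6 binds, and for PCK1, which has no such match and showed the largest difference on tethering at 4 and 6 h. The 600 bases before each start codon were searched on both strands in the S288C genome (R64, from RefSeq), since the SK1 genome the authors used was not read here, and the capitals mark matches, each line being written on the strand of its gene. The URS1 core was GGCGGC, searched on both strands, and the CSRE was searched likewise by its consensus, its matches being the longer runs of capitals in the lines of SIP4, ACS1, MDH2 and PCK1. SIP4 is at chrX:265631-265728 (strand +), CAT8 at chrXIII:831596-831641 (strand -), the ACS1 stretches are at chrI:45363-45467 and chrI:45125-45267 (strand -), MDH2 at chrXV:83248-83373 (strand -) and PCK1 at chrXI:630570-630820 (strand +).
SIP4: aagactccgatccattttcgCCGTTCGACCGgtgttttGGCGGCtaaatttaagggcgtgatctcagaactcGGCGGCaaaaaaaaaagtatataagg
CAT8: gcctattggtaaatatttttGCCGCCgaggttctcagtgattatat
ACS1, distal: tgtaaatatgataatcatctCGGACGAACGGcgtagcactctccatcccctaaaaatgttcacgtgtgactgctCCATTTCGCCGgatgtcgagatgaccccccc
ACS1, proximal: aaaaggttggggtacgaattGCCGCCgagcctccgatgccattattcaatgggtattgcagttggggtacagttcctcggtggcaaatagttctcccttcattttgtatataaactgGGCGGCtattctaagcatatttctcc
MDH2: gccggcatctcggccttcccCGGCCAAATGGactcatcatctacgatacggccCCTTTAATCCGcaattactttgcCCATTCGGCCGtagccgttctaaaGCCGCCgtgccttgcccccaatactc
PCK1: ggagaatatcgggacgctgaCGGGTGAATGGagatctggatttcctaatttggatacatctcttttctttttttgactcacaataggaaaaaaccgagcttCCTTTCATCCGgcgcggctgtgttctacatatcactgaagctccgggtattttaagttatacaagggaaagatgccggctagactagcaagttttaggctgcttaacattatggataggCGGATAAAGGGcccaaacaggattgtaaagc
The URS1 core was present in 4 of the 10 genes with 6 matches, in 2 copies in SIP4 and ACS1 and in 1 copy in CAT8 and MDH2, against 11.4% of the 5999 genes searched. The longer consensus of URS1, which includes the core, was present in 0 of the 10 genes and in 1.02% of all genes. The CSRE was present in 7 of the 10 genes with 13 matches (SIP4, ACS1, ICL1, MLS1, PCK1, MDH2 and SFC1), against 3.13% of all genes. In SIP4, 1 CSRE match and the 2 URS1 core matches lay within the 98 bases shown. ADR1 and FBP1 held neither element in this window, and SFC1 held no URS1 core. A match is a run of letters and not a measured site.

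Sequencing depth, as the sum of estimated counts, was 4603815 to 20789730 per mitotic library, 4322697 to 12330746 per meiotic library and 6456844 to 23448759 per activation domain library. In the tethering experiment it reached 14452545, with 1 library at 44189 (sfGFP-IME1; UME6-3V5 at 4 h, replicate 2), which is in no group compared here. That shallowest library was kept in the fit that all tests of the tethering experiment share. Counts and TPM (a transcript level per unit of length, scaled to the size of the library) matched under their own label in 220 libraries. The other 2, IME1; UME6-3V5 replicate 1 at 0 h and 2 h, matched only when exchanged and were left out. UME6 was at 0.051, 0.109 and 0.557 TPM in ume6Δ and 36.5, 34.9 and 34.99 TPM in WT, which fits the labels. It was higher in the tagged strains, at 87.2, 97.9 and 98.5 TPM in control at -30 min. The study's methods call the 3 libraries of a condition biological replicates. With 3 against 3 libraries an exact permutation test of 1 gene cannot go below 0.10, so differences were tested by edgeR's quasi-likelihood test fitted over all genes of an experiment. Log2 fold changes are given ± SE, p-values are Benjamini-Hochberg adjusted over all genes tested, and a gene rose or fell where its adjusted p was below 0.05.

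In glucose, the activator SIP4 rose from a trace level within 15 min of Ume6 depletion, and CAT8, ACS1 and SFC1 rose at the same time by less, while ADR1, ICL1 and MDH2 did not pass the test at any time of the depletion course. MDH2 and ICL1 did pass it, as lower in depletion, at some of these times when only the compared groups were fitted, as given with their values. At 15 min, 5 of the 10 genes rose and 0 fell, where 20.7% of the 5488 genes tested changed. At 30 min 4 rose against 7.98% of all genes, at 60 min 4 against 5.96%, and at 120 min 6 against 5.59%. At 0 min, when auxin was added, 0 of the 10 differed by edgeR and 0 by DESeq2, 1 had an unadjusted p below 0.05, and 0.51% of all genes differed. The shares of the 10 genes were above those of all genes at 15, 30, 60 and 120 min. SIP4, CAT8, ACS1 and SFC1 are also on a list of Ume6 targets that the study drew up. That list began from these libraries, so the rise of these genes is not independent of it. The study kept as direct targets the responsive genes that also had a Ume6 peak in published ChIP-seq data, a genome-wide measurement of binding. Those binding data were not used here. The median log2 fold change of the 10 genes was 0.75, 0.26, 0.53 and 1.17 at the 4 later times, against medians between 0.00 and 0.02 over all genes tested.

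SIP4 was at 3.25, 2.28 and 3.63 TPM in control and 127, 135 and 137 TPM in Ume6 depletion at 15 min. All 3 depletion libraries were far above all 3 control libraries, and the groups did not overlap at any later time. The log2 fold change of SIP4 was 5.39 ± 0.23, adjusted p = 1.31e-18 at 15 min, 4.91 ± 0.22 at 30 min, 4.51 ± 0.22 at 60 min and 3.92 ± 0.21, adjusted p = 1.93e-16 at 120 min. Control SIP4 rose meanwhile to 8.77, 8.39 and 6.39 TPM at 120 min, from 2.60, 2.63 and 2.30 TPM at 0 min. At 60 min, depletion replicate 3 was the low one of SIP4, with 105, 106 and 55.9 TPM in the 3 libraries. CAT8, whose product activates SIP4 when glucose is gone, was at 2.27, 2.28 and 2.36 TPM in control and 4.68, 4.79 and 4.56 TPM in depletion at 30 min. Its groups did not overlap there, and the log2 fold change was 0.99 ± 0.16, adjusted p = 2.26e-05. CAT8 still rose at 120 min (0.63 ± 0.15, adjusted p = 0.00696), a call lost with only the compared groups in the fit (0.62, adjusted p = 0.219) and without control replicate 1 (0.51, adjusted p = 0.0895) or depletion replicate 3 (0.42, adjusted p = 0.11). ADR1 was at 3.80, 3.55 and 3.43 TPM in control and 4.35, 4.91 and 5.46 TPM in depletion at 30 min, with the depletion libraries above the control ones, where its log2 fold change of 0.42 ± 0.14 missed the threshold (adjusted p = 0.0533).

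**Figure D1:**
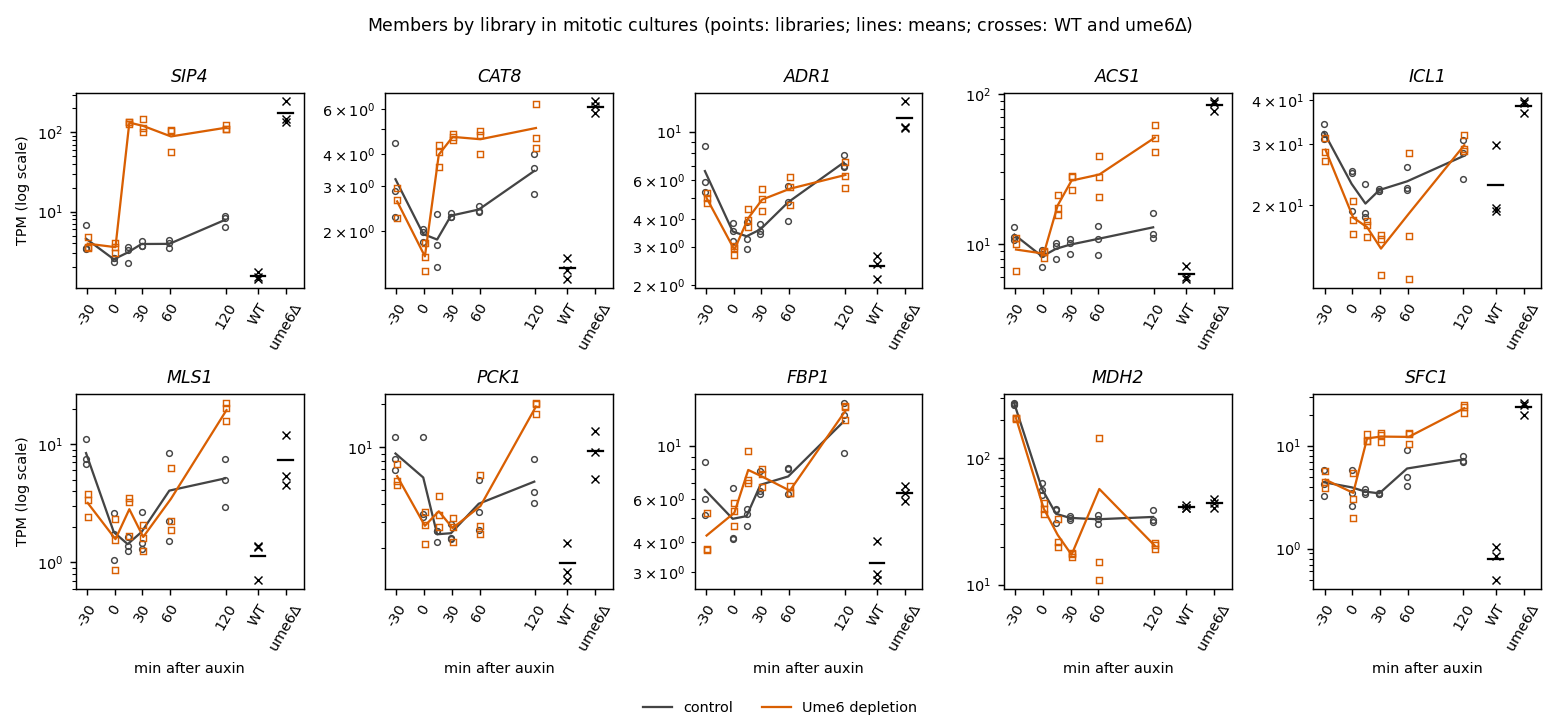
TPM (log axis) of the 10 genes in each mitotic library against time after auxin in min, with lines through the means of control and Ume6 depletion, and crosses for WT and ume6Δ. SIP4 and SFC1 separate at 15 min, the gap of ACS1 is wider at 120 than at 15 min, and MLS1 and PCK1 separate widely at 120 min. At 60 min 1 depletion library lies apart in MDH2.

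Among the enzymes, the difference of ACS1 was larger at 120 than at 15 min, and MLS1 and PCK1 passed the test at 120 min. ACS1 was at 17.4, 21.2 and 15.7 TPM in depletion at 15 min and 10.2, 9.70 and 8.01 TPM in control, a log2 fold change of 0.91 ± 0.21, adjusted p = 0.00332. By 120 min its depletion libraries were at 41.03, 50.8 and 61.9 TPM against 16.2, 10.95 and 11.7 TPM in control, and the log2 fold change was 2.03 ± 0.20, adjusted p = 1.42e-09. The 2 groups of ACS1 were apart at each of these times. SFC1, the succinate and fumarate carrier, was at 13.03, 11.2 and 11.1 TPM against 3.38, 3.79 and 3.56 TPM at 15 min, a log2 fold change of 1.66 ± 0.27, adjusted p = 2.86e-05. SFC1 rose at 60 min by 1.01 ± 0.24, adjusted p = 0.0061, lost with only the compared groups in the fit (1.004, adjusted p = 0.107) and without control replicate 1 (0.89, adjusted p = 0.058) or replicate 2 (0.77, adjusted p = 0.0924), and by 1.71 ± 0.23, adjusted p = 1.55e-06 at 120 min. The window searched held no URS1 core for SFC1.

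MLS1, malate synthase, was at 20.1, 22.4 and 15.7 TPM in depletion and 7.45, 2.95 and 4.99 TPM in control at 120 min, with no overlap and a log2 fold change of 1.95 ± 0.42, adjusted p = 0.0022. PCK1 was at 17.00, 20.04 and 20.3 TPM against 8.27, 4.10 and 4.88 TPM at the same time, a log2 fold change of 1.77 ± 0.35, adjusted p = 0.000606. Neither gene passed the test at 15, 30 or 60 min, where the log2 fold changes lay between -0.18 and 0.93. MLS1 at 15 min passed with only the compared groups in the fit (0.94, adjusted p = 0.0108). FBP1 passed at 15 min only, at 9.53, 7.23 and 7.03 TPM against 5.44, 4.65 and 5.23 TPM. Its change there was small (0.58 ± 0.21, adjusted p = 0.0466) and was lost without any 1 of control replicates 1, 2 or 3 or depletion replicates 1 or 3 (for example 0.64, adjusted p = 0.073, without control replicate 1).

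ICL1, whose product works beside Mls1, did not pass the test at any of the 4 times. At 30 min it was at 12.6, 16.01 and 16.4 TPM in depletion and 22.00, 22.03 and 22.3 TPM in control, a log2 fold change of -0.59 ± 0.19 that missed the threshold (adjusted p = 0.0545). The depletion libraries of ICL1 all lay below the control ones, and the change passed the threshold with DESeq2 (-0.60, adjusted p = 0.0267) and with RLE scaling (-0.61, adjusted p = 0.0453). With only the compared groups in the fit it passed at 30 min (-0.59, adjusted p = 0.0163) and at 15 min (-0.27, adjusted p = 0.0355).

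The mean TPM of MDH2 lay below control in depletion at 0, 15, 30 and 120 min, differences that were not called with all mitotic libraries in the fit. At 30 min it was at 16.4, 17.9 and 17.3 TPM in depletion and 32.7, 33.3 and 35.1 TPM in control (-0.999 ± 0.47, adjusted p = 0.192), and at 120 min at 19.3, 21.1 and 20.5 TPM against 39.1, 32.4 and 31.3 TPM (-0.71 ± 0.46, adjusted p = 0.499). The groups did not overlap at either time, and at 15 min they did, with 21.5, 32.9 and 19.7 TPM in depletion and 39.1, 39.2 and 30.5 TPM in control. Already at 0 min all depletion libraries lay below all control libraries, at 44.1, 39.3 and 35.9 TPM against 50.9, 63.6 and 55.6 TPM. Fitted with the compared groups alone, MDH2 was called lower at 0 min (-0.50, adjusted p = 0.0436), 15 min (-0.58, adjusted p = 0.00406), 30 min (-0.999, adjusted p = 0.000195) and 120 min (-0.71, adjusted p = 0.0272). At 60 min its direction depended on 1 library. MDH2 was there at 10.8, 15.2 and 145 TPM in depletion and 30.3, 32.7 and 35.5 TPM in control. Replicate 3 of the depletion stood far above the other two, and without it the log2 fold change of MDH2 turned from 0.85 ± 0.42 to -1.33, adjusted p = 6.95e-07. Without depletion replicate 1 it was 1.33, adjusted p = 0.0141, and without depletion replicate 2 1.23, adjusted p = 0.0474. HXT3, a glucose transporter gene, was at 135, 177 and 1033 TPM in the same 3 libraries and at 1374, 1613 and 1156 TPM in the depletion strain at -30 min. MDH2 was at 207, 205 and 209 TPM in the depletion strain at -30 min. The part of that library's state in the 60 min values was not tested. Without replicate 3, SIP4, CAT8, ACS1 and SFC1 still rose at 60 min and ICL1 fell (-0.70, adjusted p = 0.00901).

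**Figure D2:**
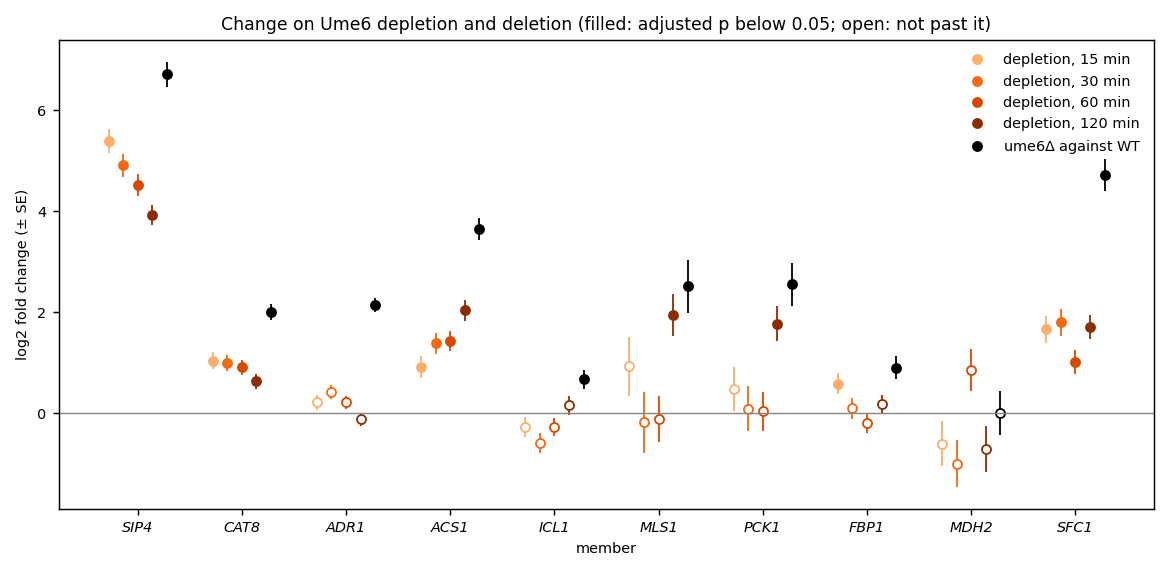
Log2 fold change ± SE of each gene on Ume6 depletion against control at 15, 30, 60 and 120 min and in ume6Δ against WT, with filled points for an adjusted p below 0.05. SIP4 leads in every comparison, and ADR1, ICL1 and FBP1 are filled for ume6Δ but open for most of the depletion times.

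Constitutive loss of UME6 was broader than depletion. In ume6Δ, 9 of the 10 genes rose against WT and 0 fell, where 55.3% of all genes tested changed. SIP4 was at 137, 149 and 245 TPM in ume6Δ and 1.75, 1.41 and 1.48 TPM in WT, a log2 fold change of 6.71 ± 0.25, adjusted p = 5.5e-22. SFC1 was at 19.99, 26.1 and 25.00 TPM against 0.854, 1.04 and 0.492 TPM (4.71 ± 0.32, adjusted p = 9.53e-15), and ACS1 at 76.6, 89.2 and 86.6 TPM against 5.85, 6.01 and 7.17 TPM (3.65 ± 0.21, adjusted p = 2.88e-16). The groups were apart in all 3 genes. ADR1, which did not pass the test in depletion, was at 10.4, 10.5 and 13.7 TPM in ume6Δ and 2.14, 2.51 and 2.72 TPM in WT (2.15 ± 0.14, adjusted p = 3e-15). The other 5 that rose had log2 fold changes from 0.67 (ICL1) to 2.55 (PCK1). MDH2 was at 47.2, 40.5 and 43.98 TPM against 40.3, 40.6 and 42.5 TPM, overlapping groups with a log2 fold change of 0.01 ± 0.43.

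The effect of ume6Δ against WT exceeded that of 120 min of depletion against its control in 6 of the 10 genes, by a test of the difference itself, where 39.0% of all genes differed. The excess on the log2 scale was 3.01 ± 0.42, adjusted p = 5.03e-07 for SFC1, 2.79 ± 0.32 for SIP4, 2.27 ± 0.19 for ADR1, 1.62 ± 0.29 for ACS1 and 1.38 ± 0.22 for CAT8. For FBP1 it was 0.72 ± 0.29, adjusted p = 0.0493, a call that 8 of the 12 libraries could end when left out, for instance WT replicate 1 (0.60, adjusted p = 0.146), and that was lost with no filter on low counts, with only the compared groups in the fit and with a replicate block. MLS1 and PCK1 did not pass this test (0.57 ± 0.68 and 0.78 ± 0.55). Strain and handling cannot be told apart from the difference between deletion and depletion here, because the control strain itself differed from WT. WT and ume6Δ both lacked the tag and the LexA construct, so this does not bear on ume6Δ against WT. In control at -30 min, 10 of the 10 genes were above WT, where 39.9% of all genes differed. MDH2 was at 273, 269 and 263 TPM there against 40.3, 40.6 and 42.5 TPM in WT (2.67 ± 0.42, adjusted p = 5.14e-06), and SIP4 at 3.41, 6.80 and 3.46 TPM against 1.75, 1.41 and 1.48 TPM (1.40 ± 0.28, adjusted p = 0.000168). The call of ICL1 in this comparison was 0.48 ± 0.18, adjusted p = 0.0352, lost with only the compared groups in the fit and without control replicate 1 or 3 or WT replicate 1 or 2. HXT3 was at 1636, 1245 and 1946 TPM in these control libraries and 369, 349.6 and 522 TPM in WT. The control mean TPM of each of the 10 genes was lower at 0 min than at -30 min and still above that of WT. MDH2 was at 50.9, 63.6 and 55.6 TPM in control at 0 min, and SIP4 at 2.60, 2.63 and 2.30 TPM. Control at 0 min was not tested against WT, so a state of the -30 min cultures cannot be told apart from a difference in strain. Within the control course, 6 of the 10 genes rose from 0 to 120 min against 38.9% of all genes changed. SIP4 rose by 1.47 ± 0.25, FBP1 by 1.17 ± 0.20 and ADR1 by 0.85 ± 0.14. The rise of MLS1 (1.31 ± 0.51, adjusted p = 0.0418) and of SFC1 (0.69 ± 0.27, adjusted p = 0.0436) was lost without control replicate 1 or 2 at 0 min or replicate 1 or 3 at 120 min, and SFC1 stood at 0.72, adjusted p = 0.0862 with only the compared groups in the fit, at 0.44, adjusted p = 0.252 without replicate 2 at 0 min and at 1.10, adjusted p = 0.00689 without replicate 3 at 0 min.

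Across the 14 mitotic conditions, the genes whose group mean log2(TPM + 1) ran closest to SIP4 were NDJ1 (Pearson r = 0.998), MEI4 (r = 0.996) and SRT1 (r = 0.995), of 4906 genes considered. NDJ1 and MEI4 encode proteins of meiotic chromosome behaviour. Those closest to PCK1 were SER3 (r = 0.860), HAB1 (r = 0.839) and DPA10 (r = 0.831). Among the 10 genes themselves, SIP4 ran with CAT8 (r = 0.92), SFC1 (0.91) and ACS1 (0.90), and MLS1 with PCK1 (0.92). The same measure was -0.41 for SIP4 and MDH2 and -0.05 for SIP4 and ICL1. These are descriptions over conditions that share strains and libraries.

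The surrounding pathways were followed in 7 lists, with 71 genes tested in all, of which 1, HXK2, is counted on the lists of Snf1 and glucose signalling and of glycolysis alone. At 15 min of depletion, 8 of them rose and 14 fell, where 20.7% of all genes changed. The genes that rose most were ADY2 (acetate transport, 2.35 ± 0.55), ACH1 (transfer of CoA to acetate, 1.57 ± 0.14) and PYC1 (pyruvate carboxylase, 1.30 ± 0.12), and those that fell most were MIG2 (a glucose repressor, -1.07 ± 0.30), VID24 (part of the GID ligase, which degrades gluconeogenic enzymes, -0.72 ± 0.13) and ADH2 (-0.63 ± 0.20). By list, 4 rose and 3 fell of 12 genes for acetate, ethanol, glycerol and lactate use, 2 rose and 5 fell of 14 other glyoxylate and TCA cycle genes, and 1 rose and 1 fell of 10 other regulators of nonfermentable carbon use. Of 10 Snf1 and glucose signalling genes 0 rose and 2 fell, of 7 GID ligase genes 0 rose and 1 fell, of 9 genes of reversible glycolytic steps 0 rose and 1 fell, and of 10 genes of glycolysis alone 1 rose and 1 fell. At 120 min 8 of the 71 rose and 3 fell, against 5.59% of all genes, and in ume6Δ 39 rose and 9 fell, against 55.3%. In ume6Δ, 12 of the 14 other glyoxylate and TCA cycle genes rose and 0 fell, with CIT2 (peroxisomal citrate synthase) up by 3.01 ± 0.15 and ICL2 by 3.12 ± 0.22, and 7 of the 12 acetate, ethanol, glycerol and lactate genes rose and 1 fell, with ADY2 up by 5.00 ± 0.64.

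In acetate-grown meiotic cultures the same 10 genes were already high, and 0 to 3 of them differed on Ume6 depletion at each time tested. The study's methods state that Ume6 was depleted less fully in meiotic than in mitotic cells. ACS1 ranged from 1955 to 10379 TPM over the 36 meiotic libraries, against 5.85 to 89.2 TPM over the 42 mitotic ones, and SIP4 from 239 to 1024 TPM against 1.41 to 245 TPM. The 2 tables were made separately, so these levels are set side by side without a test. At 2 h, before IME1 and IME4 were induced, 3 of the 10 genes were higher in Ume6 depletion and 0 were lower. Of the 5526 genes tested, 4.74% differed. DESeq2 called 4 of the 10, the other being ICL1 (0.78, adjusted p = 0.0295). At 2.5 h 0 of the 10 differed by edgeR against 8.27% of all genes, with 2 at an unadjusted p below 0.05 and 1 by DESeq2. At 3 h 2 were higher against 8.4%, and at 6 h 0 differed by edgeR against 13.6%, with 1 at an unadjusted p below 0.05 and 1 by DESeq2.

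SIP4 was at 289, 342 and 273 TPM in control and 508, 511 and 567 TPM in depletion at 2 h, a log2 fold change of 0.84 ± 0.12, adjusted p = 3.38e-05. After copper was added, at 2.5 h, control had climbed to 729.6, 734 and 634 TPM while depletion stood at 519.8, 522 and 538 TPM. Depletion was thus above control in all libraries at 2 h and below it in all libraries at 2.5 h. The change of SIP4 from 2 to 2.5 h was smaller in depletion than in control by -1.20 ± 0.18, adjusted p = 1.73e-05 on the log2 scale. ACS1 was at 1955, 2522 and 1982 TPM in control and 3490.4, 3888 and 5149.5 TPM in depletion at 2 h (0.99 ± 0.17, adjusted p = 0.000342), again with no overlap. At 2.5 h ACS1 was at 6559.6, 6499 and 6062 TPM in control and 5413, 5644 and 6120.5 TPM in depletion, where the groups overlapped, and the difference of the 2 changes was -1.10 ± 0.24, adjusted p = 0.0048. These were the 2 of the 10 genes that passed the test of that difference, against 3.29% of all genes. Both ACS1 calls were lost with only the compared groups in the fit, that at 2 h (0.98, adjusted p = 0.0891) and that of the difference of the changes (-1.09, adjusted p = 0.06). IME2, an early meiotic gene that Ime1 and Ume6 turn on, went from 178, 182 and 146 TPM at 2 h to 1439.5, 1146 and 964 TPM at 2.5 h in control and from 369, 418 and 409.9 to 329, 372 and 332 TPM in depletion.

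**Figure D3:**
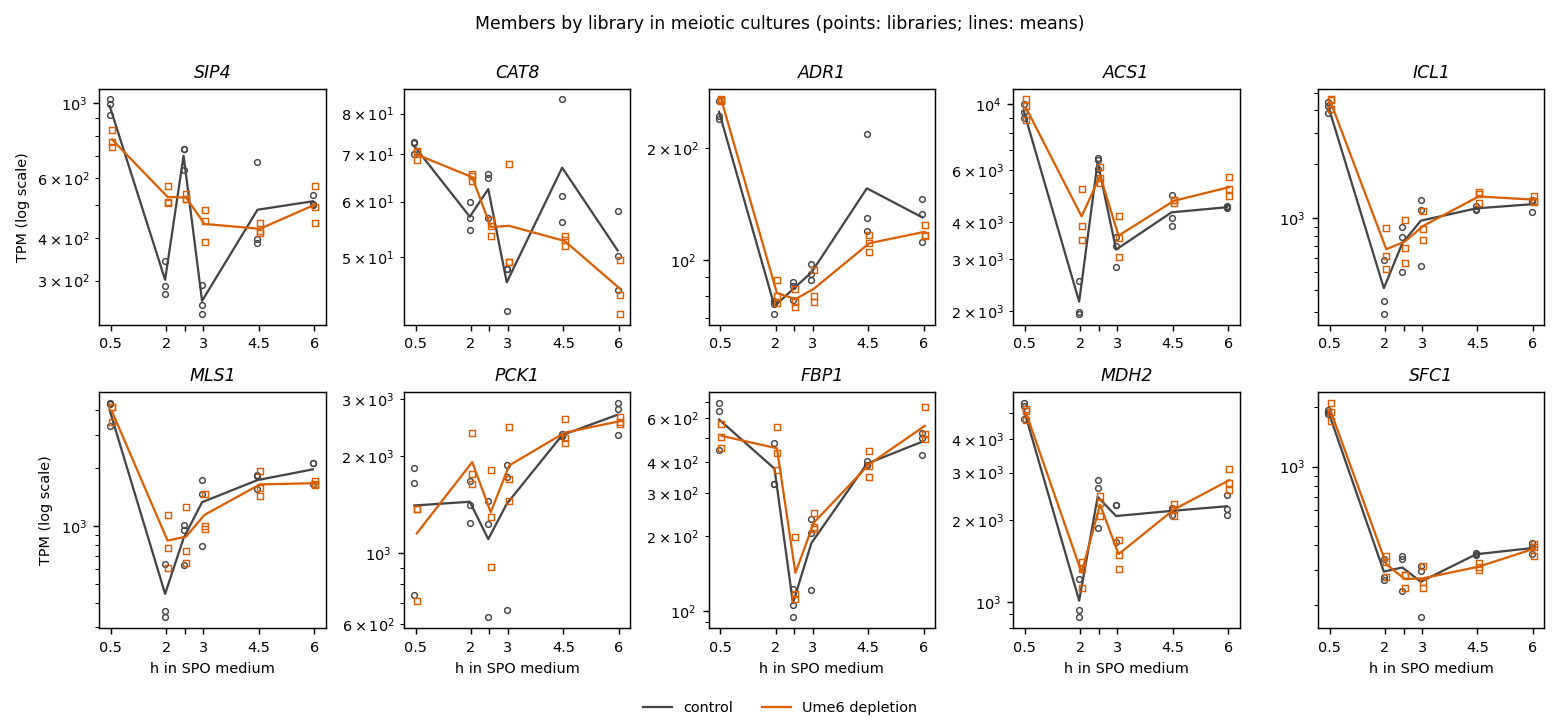
TPM (log axis) of the 10 genes in each meiotic library against h in SPO medium, with lines through the means of control and Ume6 depletion. SIP4 and ACS1 rise in control from 2 to 2.5 h but hold nearer their 2 h level in depletion, and FBP1 dips in both strains.

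MLS1 was the other gene above control at 2 h, at 608, 775 and 1149 TPM in depletion and 640.1, 362 and 337 TPM in control. Its groups overlapped, and the log2 fold change of 0.98 ± 0.27, adjusted p = 0.027 was lost without control replicate 2, control replicate 3 or depletion replicate 3, and with only the compared groups in the fit (0.97, adjusted p = 0.175), depletion replicate 3 giving 0.65, adjusted p = 0.247. At 3 h SIP4 was again higher in depletion, at 389.5, 448 and 483 TPM against 291, 255 and 239 TPM (0.79 ± 0.12, adjusted p = 0.000114). CAT8 was at 49.2, 49.2 and 67.8 TPM against 41.9, 48.1 and 48.2 TPM at 3 h. The change of CAT8 was small (0.29 ± 0.09, adjusted p = 0.0395) and was lost without control replicate 1, control replicate 2 or depletion replicate 3, leaving 1 gene called. Both calls at 3 h were lost with only the compared groups in the fit, SIP4 at 0.78, adjusted p = 0.0616 and CAT8 at 0.28, adjusted p = 0.34. At 6 h the log2 fold changes of all 10 genes lay between -0.16 (MLS1) and 0.40 (MDH2), and the 1 gene DESeq2 called was MDH2 (0.41, adjusted p = 0.0436), as it called SIP4 at 2.5 h (-0.36, adjusted p = 0.0232).

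The control course itself moved these genes in both directions. From 2 to 2.5 h, 5 rose and 1 fell, where 59.9% of all genes changed, and the share of the 10 genes was close to that background. FBP1 fell from 477, 325 and 326 TPM to 94.1, 106 and 123 TPM (-2.05 ± 0.22, adjusted p = 3.14e-09), with all libraries at 2.5 h below all at 2 h. ACS1 rose by 1.30 ± 0.17, MDH2 by 1.02 ± 0.16 and SIP4 by 0.95 ± 0.13. The rises of ICL1 (0.59 ± 0.25, adjusted p = 0.0442) and MLS1 (0.72 ± 0.27, adjusted p = 0.0217) had overlapping groups and were lost without replicate 2 or 3 at either time, and ICL1 stood at 0.65, adjusted p = 0.0522 with only the compared groups in the fit and at 0.90, adjusted p = 0.00554 without replicate 1 at 2 h. Of the surrounding pathways, 9 of 9 genes of reversible glycolytic steps fell in that interval, led by ENO1 (enolase, -6.11 ± 0.68), and 9 of 9 were higher in depletion than in control at 2.5 h, led by ENO2 (2.61 ± 0.58). From 2 to 6 h 8 of the 10 genes rose in control and 0 fell, against 69.2% of all genes changed. The largest rises were those of MLS1, at 2138, 1657 and 2138 TPM at 6 h (2.13 ± 0.28, adjusted p = 6.04e-08), and ICL1 (1.53 ± 0.26, adjusted p = 4.21e-06). The rise of PCK1 (0.87 ± 0.32, adjusted p = 0.0165) was lost without replicate 2 at 2 h, and that of SFC1 (0.37 ± 0.16, adjusted p = 0.037) without replicate 2 or 3 at 2 h or any 1 replicate at 6 h.

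With native IME1 and UME6 in SPO medium, the gluconeogenic end of the pathway fell early while SIP4 rose. Between 0 and 2 h 1 of the 10 genes rose and 4 fell, where 66.8% of the 5527 genes tested changed. PCK1 went from 6092, 6972 and 5686 TPM to 223, 385 and 240.3 TPM (-4.51 ± 0.61, adjusted p = 2.21e-09), and FBP1 from 804, 831 and 788 TPM to 88.9, 97.7 and 68.5 TPM (-3.29 ± 0.55, adjusted p = 3.3e-07). SIP4 went from 143, 128 and 149 TPM to 381, 372 and 391 TPM (1.40 ± 0.16, adjusted p = 1.98e-11). No libraries of the 2 times overlapped in these 3 genes. CAT8 changed by -0.86 ± 0.14 and SFC1 by -1.05 ± 0.32 on the log2 scale, and ICL1, MLS1, MDH2, ACS1 and ADR1 lay between -0.31 and 0.15. From 0 to 6 h 2 rose and 5 fell against 81.6% of all genes. FBP1 was at 52.2, 48.7 and 58.9 TPM by then (-3.47 ± 0.55, adjusted p = 5.7e-08), while PCK1 stood at 2202, 1696 and 2281 TPM. The remaining fall of PCK1 (-1.15 ± 0.54, adjusted p = 0.0446) was lost with RLE scaling (-0.93, adjusted p = 0.0972), with DESeq2 and without any 1 of the 6 libraries. In this comparison the median change over all genes was -0.04 with TMM scaling, 0.17 with RLE scaling and -0.47 in log2(TPM + 1), so the direction of changes within this shift depends on the scaling.

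UME6(T99N)-3V5 and UME6-3V5 cells were compared at 2 and 6 h. In the reported fit, ACS1 at 6 h was the only difference among the 10 genes that passed the test. With only the compared groups in the fit, FBP1 passed at both times. At 2 h 0 of the 10 genes differed between UME6(T99N)-3V5 and UME6-3V5, the latter with 2 libraries, where 23.7% of all genes differed. DESeq2 also called 0 there, and 1, ACS1, had an unadjusted p below 0.05. ACS1 was at 4751, 9212 and 5785 TPM in T99N cells and 9774 and 12840.4 TPM in the others (-0.70 ± 0.29, adjusted p = 0.0701). It passed the threshold without UME6-3V5 replicate 2 (-0.95, adjusted p = 0.0451, where the 1 library left is assumed to vary like the other groups) or UME6(T99N)-3V5 replicate 2 (-1.07, adjusted p = 0.00896). With the exchanged library kept under the label of its counts, PCK1 (-2.16, adjusted p = 0.0365) and CAT8 (-0.56, adjusted p = 0.0302) were called. At 6 h 1 gene was higher in T99N cells against 30.5% of all genes. This was ACS1, at 12872, 14298 and 14092 TPM against 7321, 9725 and 9196 TPM (0.76 ± 0.26, adjusted p = 0.0209), a call lost without UME6-3V5 replicate 1 (0.58, adjusted p = 0.163) or UME6(T99N)-3V5 replicate 3 (0.72, adjusted p = 0.0619). FBP1 was at 109, 158 and 177 TPM against 83.7, 66.04 and 60.4 TPM at 6 h (1.21 ± 0.52, adjusted p = 0.0682). It passed the threshold once the shallowest library was left out of the fit (1.21, adjusted p = 0.0429). With only the compared groups in the fit, FBP1 was called higher in T99N cells at 6 h (1.19, adjusted p = 8.02e-05) and at 2 h (0.95, adjusted p = 0.00937). Of the genes of reversible glycolytic steps 9 of 9 were higher in T99N cells at 6 h.

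Where Ime1 was tethered to UME6(T99N), SIP4 and ADR1 were higher at all 4 times, CAT8 was higher from 2 h on and PCK1 was higher at 4 and 6 h. The sfGFP tag on Ime1 came together with the tether in this pair of strains, and the 2 cannot be told apart. The strains with sfGFP-IME1 and no nanobody were in no comparison. At 0 h 2 of the 10 genes were higher in tethered than in untethered cells and 0 were lower, where 35.1% of all genes differed. At 2 h 4 were higher and 2 lower against 62.2%, at 4 h 4 were higher against 66.1%, and at 6 h 5 were higher against 70.4%. These shares were below those of all genes. IME2 was at 2365, 2804 and 2443 TPM in tethered and 21.99, 17.2 and 19.7 TPM in untethered cells at 2 h, which fits the labels.

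SIP4 was at 267, 347 and 275 TPM in tethered and 41.7, 63.4 and 44.5 TPM in untethered cells at 0 h (2.53 ± 0.17, adjusted p = 1.57e-20). At 6 h it was at 393, 352 and 355 TPM against 129, 115 and 132 TPM (1.45 ± 0.16, adjusted p = 4.99e-12). Tethered libraries were above untethered ones at every time. The difference in SIP4 was 0.54 ± 0.16 at 2 h and 0.54 ± 0.16 at 4 h, the latter 0.84, adjusted p = 2.49e-05 without untethered replicate 3. ADR1 was at 257, 279 and 238 TPM in tethered and 159, 125 and 137 TPM in untethered cells at 4 h (0.66 ± 0.14, adjusted p = 2.24e-05), and was higher at 0, 2 and 6 h as well. Its call at 6 h was lost without untethered replicate 2 (0.33, adjusted p = 0.0529). CAT8 was at 54.02, 58.4 and 56.5 TPM against 30.02, 30.3 and 25.2 TPM at 2 h (0.69 ± 0.14, adjusted p = 2e-05). CAT8 was also higher at 6 h (0.45 ± 0.14), and its call at 4 h (0.31 ± 0.14, adjusted p = 0.0428) was lost without any 1 of tethered replicates 1 to 3 or untethered replicates 1 or 2.

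**Figure D4:**
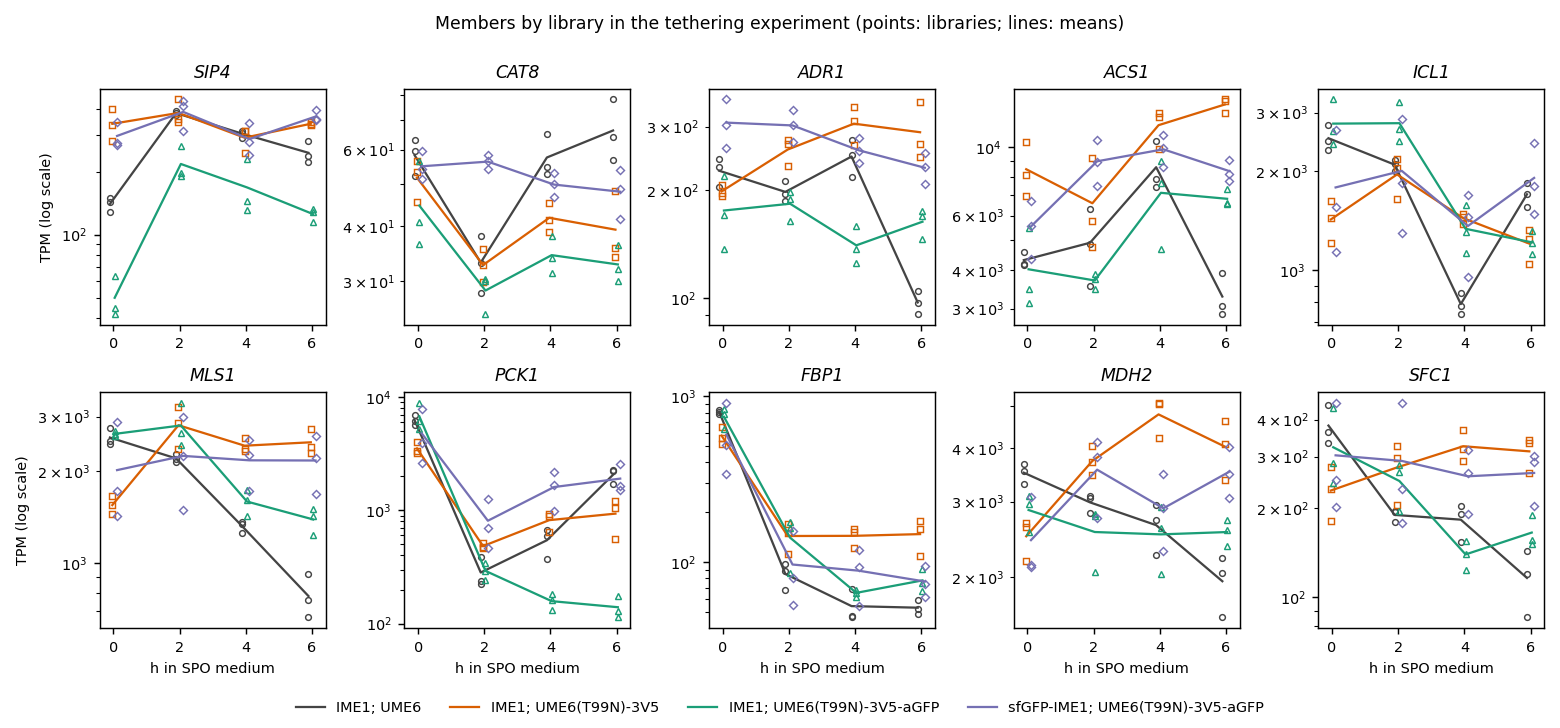
TPM (log axis) of the 10 genes in each library of 4 strains of the tethering experiment against h in SPO medium, with lines through the means. PCK1 is lower at 2 h than at 0 h in all 4 strains and lies higher in tethered than in untethered cells at 4 and 6 h, and SIP4 starts lowest in untethered cells.

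PCK1 was lower at 2 h than at 0 h in every library of both strains, a drop that was not tested, and the strains then parted. In tethered cells it was at 1665, 2167 and 982 TPM at 4 h and 2562, 1649 and 1503 TPM at 6 h. In untethered cells it was at 182, 160.2 and 132 TPM and 114, 130.4 and 175 TPM. The lowest tethered library was several times the highest untethered one at both times, and the log2 fold change was 3.13 ± 0.58, adjusted p = 3.04e-06 at 4 h and 3.66 ± 0.59, adjusted p = 1.33e-07 at 6 h. At 2 h the difference of PCK1 missed the threshold (1.16 ± 0.54, adjusted p = 0.056) and passed it with DESeq2 (1.16, adjusted p = 0.0301). It also passed with only the compared groups in the fit (1.22, adjusted p = 0.0052) and with the shallowest library left out of the fit (1.16, adjusted p = 0.034). Without tethered replicate 3 it passed as well (1.42, adjusted p = 0.033). PCK1 has 3 CSRE matches and no URS1 core in the upstream window shown above. ACS1 was at 7493, 10561 and 8956 TPM in tethered and 3890.4, 3479 and 3727 TPM in untethered cells at 2 h (0.99 ± 0.26, adjusted p = 0.000906) and did not pass the test at 0, 4 or 6 h. MDH2, which has a URS1 core, lay between -0.27 and 0.36 at the 4 times and passed at none of them in the reported fit. With only the compared groups in the fit, MDH2 was higher in tethered cells at 6 h (0.41, adjusted p = 0.0154).

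The shunt enzymes went the other way at 2 h. ICL1 was at 1841, 2859.6 and 1299.5 TPM in tethered and 2683, 3223 and 2455 TPM in untethered cells (-0.79 ± 0.30, adjusted p = 0.0178), and MLS1 was lower as well (-0.63 ± 0.24, adjusted p = 0.0185). The groups overlapped in both genes. The call of ICL1 was lost without tethered replicate 1 or 3 or untethered replicate 2, and that of MLS1 without tethered replicate 3 (-0.43, adjusted p = 0.163) or untethered replicate 2, and with only the compared groups in the fit (-0.57, adjusted p = 0.0794). Tethered replicate 3 was the lowest of its group in both. At 0 h the 2 genes were called as well once tethered replicate 3 was left out, at -1.10, adjusted p = 0.00591 for ICL1 and -0.80, adjusted p = 0.0119 for MLS1. At 6 h MLS1 was higher in tethered cells (0.52 ± 0.24, adjusted p = 0.0458), a call lost without any 1 of untethered replicates 1 to 3 or tethered replicates 1 or 3. FBP1 and SFC1 passed at none of the 4 times in the reported fit. With only the compared groups in the fit, SFC1 was higher in tethered cells at 4 h (0.69, adjusted p = 0.00924) and 6 h (0.61, adjusted p = 0.00579). ICL1 was higher at 6 h in that fit (0.60, adjusted p = 0.0182) and with DESeq2 (0.61, adjusted p = 0.047). Of the surrounding pathways, 9 of 9 genes of reversible glycolytic steps were lower in tethered cells at each time, led at 6 h by ENO1 (-6.03 ± 0.84), and ADY2 was higher by 2.71 ± 0.36.

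Across the 32 conditions of the tethering experiment, the genes that ran closest to SIP4 were DSF2 (r = 0.802), SMC1 (r = 0.799) and IRR1 (r = 0.794), of 5346 considered. SMC1 and IRR1 encode subunits of cohesin. Those closest to PCK1 were BAT2 (r = 0.902), HSP26 (r = 0.899) and NAB2 (r = 0.895). In some of these conditions single libraries stood apart in PCK1, as given at the end, and their part in its r values was not tested. Among the 10 genes, PCK1 ran with FBP1 (r = 0.74) and CAT8 (0.74), and its r with SIP4 was -0.31. These values describe conditions that share strains, medium and time, and no test was made of them.

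The activation domain experiment asked whether a foreign activation domain could stand in for Ime1. In each pair of tethered and untethered strains, the sfGFP tag came together with the tether. PCK1 from 2 h on and SIP4 at all 4 times were higher in tethered cells with either domain, and for 0 of the 10 genes did the effects of the 2 domains differ by the test at 2 h. IME1 itself was at 1.63, 0.698 and 0.591 TPM in B112 cells and 986, 1350.0 and 1150.1 TPM in sfGFP-IME1 cells at 2 h. With sfGFP-IME1 against IME1, 2 genes were higher and 4 lower at 0 h where 63.2% of the 5528 genes tested differed, 4 higher and 0 lower at 2 h against 63.8%, 4 higher and 2 lower at 4 h against 69.8%, and 3 higher and 2 lower at 6 h against 61.1%. With sfGFP-B112 against B112, 1 was higher and 8 lower at 0 h against 60.0%, and 3 were higher and 0 lower at 2 h against 48.4%, at 4 h against 45.0% and at 6 h against 59.6%. At 0 h with B112 the share of members called was above that of all genes, and in the other 7 comparisons it was below it. With sfGFP-IME1 the median change over all genes in log2(TPM + 1) was -0.64 at 4 h and -0.77 at 6 h, while with TMM scaling it was -0.16 and -0.05, so that TPM values there run below what the tests compare.

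PCK1 was at 2197, 1428 and 1792 TPM with sfGFP-IME1 and 229, 242 and 225 TPM with IME1 at 4 h (3.46 ± 0.36, adjusted p = 8.41e-11). With sfGFP-B112 it was at 2437, 779 and 1146 TPM and with B112 at 269, 288.1 and 225 TPM (2.16 ± 0.34, adjusted p = 2.44e-06). Tethered and untethered libraries were apart at 2, 4 and 6 h for both domains. The difference was 2.27 ± 0.34 and 3.48 ± 0.36 at 2 and 6 h with Ime1, and 1.88 ± 0.33 and 3.13 ± 0.35 with B112. At 0 h the 2 pairs went opposite ways: PCK1 was at 3812, 4037 and 3537 TPM against 1483, 1352 and 1883 TPM with Ime1 (1.20 ± 0.33, adjusted p = 0.00176), and at 1715, 1144 and 1199.9 TPM against 2629, 2244 and 2697 TPM with B112 (-1.28 ± 0.33, adjusted p = 0.00102). The call in the Ime1 pair was lost with only the compared groups in the fit (1.26, adjusted p = 0.0704). The difference between these pairs at 0 h was not tested.

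**Figure D5:**
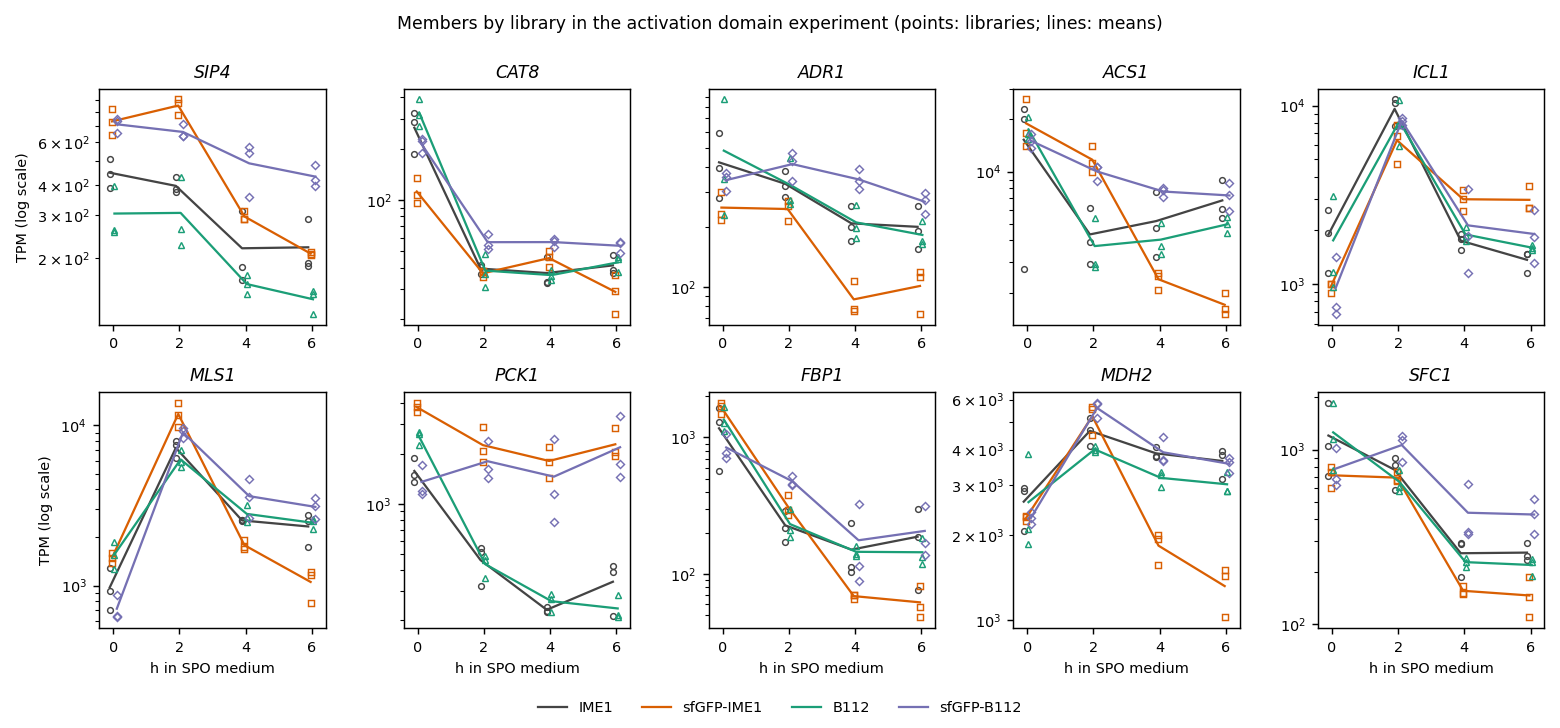
TPM (log axis) of the 10 genes in each library of the activation domain experiment against h in SPO medium, with lines through the means of the 4 strains. PCK1 is higher with sfGFP-IME1 and sfGFP-B112 than in their untethered partners from 2 h on, and SIP4 is higher with sfGFP-B112 than with B112 throughout.

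SIP4 was at 873, 776 and 902 TPM with sfGFP-IME1 and 384, 433 and 373 TPM with IME1 at 2 h (1.08 ± 0.22, adjusted p = 5.1e-05). With sfGFP-B112 it was at 713, 639 and 634 TPM and with B112 at 432, 226 and 263 TPM (0.94 ± 0.22, adjusted p = 0.000477). It was higher in tethered cells at all 4 times for both domains by the test. With B112 the difference was 0.86 ± 0.22 at 0 h, 1.35 ± 0.22 at 4 h and 1.60 ± 0.22 at 6 h. With Ime1 it was 0.65 ± 0.21 at 0 h, lost with only the compared groups in the fit (0.72, adjusted p = 0.155) and without IME1 replicate 2 (0.49, adjusted p = 0.0576), 0.96 ± 0.22 at 4 h and 0.67 ± 0.22 at 6 h. In mean TPM the direction of SIP4 flipped at 6 h, with 211, 206 and 208 TPM in sfGFP-IME1 and 288.4, 191 and 185 TPM in IME1 cells, so the 6 h call holds on the TMM scale and not in the means of the TPM. That flip rested on IME1 replicate 1: the other two IME1 libraries lay below all 3 sfGFP-IME1 libraries.

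ACS1 was at 14108, 11138 and 9897 TPM with sfGFP-IME1 and 6151, 2934 and 3924 TPM with IME1 at 2 h (1.41 ± 0.47, adjusted p = 0.0086), lost without IME1 replicate 2 (1.19, adjusted p = 0.0525). With sfGFP-B112 it was at 8831, 10572 and 10638 TPM and with B112 at 5394, 2930.2 and 2815 TPM (1.27 ± 0.46, adjusted p = 0.0232), lost without replicate 2 or 3 of either strain. The groups of ACS1 were apart in both pairs at 2 h. At 6 h ACS1 was lower with sfGFP-IME1, at 1999, 1602 and 1503 TPM against 8942, 5394 and 6110.2 TPM (-1.24 ± 0.46, adjusted p = 0.0199), lost without sfGFP-IME1 replicate 2 or 3 or IME1 replicate 1. At 0 h 1 IME1 library lay apart, with ACS1 at 23012, 2735 and 20096 TPM in replicates 1 to 3. The calls of SIP4 and SFC1 at 0 h with Ime1 were lost without that library, and those of ADR1 were lost without replicate 1 or 3 of IME1 or replicate 1 of sfGFP-IME1 and of ICL1 without replicate 3 of IME1 or replicate 2 of sfGFP-IME1. With only the compared groups in the fit the calls of SIP4, ADR1 (-0.79, adjusted p = 0.206), ICL1 (-0.87, adjusted p = 0.117) and SFC1 (-0.64, adjusted p = 0.155) were lost at 0 h as well. ADR1 stood at -0.52, adjusted p = 0.174 without IME1 replicate 3.

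CAT8 was lower in tethered cells at 0 h with both domains, at 107, 134 and 96.01 TPM against 289, 186 and 322 TPM with Ime1 (-1.36 ± 0.21, adjusted p = 6.75e-07) and 189, 229 and 221 TPM against 390.0, 274 and 315 TPM with B112 (-0.98 ± 0.21, adjusted p = 9.84e-05). The libraries did not overlap in either pair. MLS1 was lower with sfGFP-B112 at 0 h (-1.50 ± 0.27, adjusted p = 1.06e-05), and FBP1, ICL1, SFC1, ADR1 and MDH2 fell between -1.23 and -0.54. Of these, B112 replicate 1 decided 3: without it ADR1 stood at -0.17, adjusted p = 0.632, ICL1 at -0.61, adjusted p = 0.115 and MDH2 at -0.23, adjusted p = 0.328. Without sfGFP-B112 replicate 1 the call of ADR1 was lost, without its replicate 3 that of MDH2, and without replicate 2 or 3 of either strain that of FBP1. With only the compared groups in the fit the calls of ADR1 (-0.75, adjusted p = 0.202), ICL1 (-1.15, adjusted p = 0.0941), MDH2 (-0.47, adjusted p = 0.259) and SFC1 (-0.97, adjusted p = 0.0516) were lost. At 4 h CAT8 was higher in the Ime1 pair (0.81 ± 0.21, adjusted p = 0.000761) with overlapping TPM. In the B112 pair it passed at none of 2, 4 and 6 h in the reported fit. With only the compared groups in the fit, CAT8 was higher with sfGFP-B112 at 4 h (0.41, adjusted p = 0.0155) and 6 h (0.28, adjusted p = 0.0476). At 2 h it was called without B112 replicate 1 (0.58, adjusted p = 0.0356).

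Of the shunt genes, ICL1 was at 3549, 2683 and 2659 TPM with sfGFP-IME1 and 1149, 1477 and 1476 TPM with IME1 at 6 h (1.86 ± 0.35, adjusted p = 1.91e-05) and was higher at 4 h too (1.27 ± 0.34). MLS1, its partner in the shunt, was at 1159.7, 781 and 1223 TPM against 1735, 2528 and 2759.8 TPM at 6 h (-0.40 ± 0.26, adjusted p = 0.191), and was higher at 2 h (0.68 ± 0.26, adjusted p = 0.0241), a call lost without replicate 1 of either strain. In TPM the 2 shunt genes lay on opposite sides of their untethered partners at 6 h. MLS1 did not pass the test there, and the median change over all genes in log2(TPM + 1) was -0.77. MDH2 was lower with sfGFP-IME1 at 4 h (-0.58 ± 0.20, adjusted p = 0.0112), lost without sfGFP-IME1 replicate 2 and with only the compared groups in the fit (-0.46, adjusted p = 0.0556), and at 6 h (-0.71 ± 0.20, adjusted p = 0.00261). ADR1 was lower at 4 h (-0.75 ± 0.31, adjusted p = 0.0301), a call lost with RLE scaling (-0.62, adjusted p = 0.0721), which left 4 genes higher and 1 lower, and without IME1 replicate 1 or sfGFP-IME1 replicate 2 or 3. With B112, SFC1 was higher at 6 h, at 519, 427 and 329 TPM against 238, 229 and 189 TPM (0.88 ± 0.26, adjusted p = 0.00359). At 4 h its 0.63 ± 0.25, adjusted p = 0.0422 was lost without sfGFP-B112 replicate 1 (0.29, adjusted p = 0.408) or any 1 B112 replicate.

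At 2 h the tethering effects of the 2 domains were compared directly. By edgeR 0 of the 10 genes differed, with 0 by DESeq2 and 0 at an unadjusted p below 0.05, against 8.56% of all genes by adjusted p. The difference of the effects was 0.39 ± 0.46 for PCK1, 0.14 ± 0.30 for SIP4 and 0.14 ± 0.65 for ACS1. At 4 h the tethered strains were compared with each other, and 2 of the 10 genes were higher with sfGFP-IME1 and 2 lower, against 62.9% of all genes. ADR1 was at 107, 77.6 and 76.2 TPM with sfGFP-IME1 and 309.8, 339 and 391 TPM with sfGFP-B112 (-1.32 ± 0.31, adjusted p = 0.000435). ICL1 was higher with sfGFP-IME1 (1.19 ± 0.34, adjusted p = 0.00314). PCK1 was higher (1.01 ± 0.33, adjusted p = 0.00748), a call lost without sfGFP-B112 replicate 2 and standing at 1.55, adjusted p = 0.000267 without sfGFP-B112 replicate 1. SFC1 was lower (-0.78 ± 0.26, adjusted p = 0.00823), and without that replicate 1 it stood at -0.45, adjusted p = 0.146. The median change over all genes here was -0.25 with TMM, -0.13 with RLE and -0.88 in log2(TPM + 1). On each of these scales ADR1 lay below the median and ICL1 above it. CAT8 passed the threshold here with RLE scaling (0.49, adjusted p = 0.0406) and with DESeq2 (0.49, adjusted p = 0.0292), and in TPM it lay the other way (49.98, 46.3 and 40.2 with sfGFP-IME1 and 59.3, 52.5 and 57.7 with sfGFP-B112). In the surrounding pathways 9 of 9 genes of reversible glycolytic steps were lower in tethered than in untethered cells at every time with both domains, with TDH3 at -7.02 ± 0.90 at 0 h in the B112 pair, and ADY2 was higher by 3.48 ± 0.44 at 4 h in the Ime1 pair and 2.86 ± 0.43 in the B112 pair.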

How the data were processed

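RNA-seq reads of 100 bases from 222 libraries were quantified by the authors with kallisto (single-end, fragment length 160, SD 20) on SK1 transcripts. HISAT2, SAMtools and StringTie are also named in the submitters' notes, without versions. The deposited count tables hold estimated counts, which were rounded to whole numbers here, and the deposited TPM tables hold the authors' TPM, used for levels. The 4 experiments' tables were made separately and tests stayed within each.

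Estimated counts were tested in R 4.3.3 with edgeR 4.0.16 (TMM scaling, filterByExpr, quasi-likelihood test, 1 mean per condition, all libraries of an experiment in 1 fit, 94 of 96 in the tethering experiment), with Benjamini-Hochberg adjustment over all genes tested and a threshold of 0.05. The fit was tested on simulated data. Alternatives were RLE scaling, no filter, DESeq2 1.42.0, the compared groups alone, a replicate block, leaving out each library, and keeping or exchanging the 2 exchanged libraries. Python 3.11.15, pandas 2.3.3 and matplotlib 3.10.9 made the summaries and figures.

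The 10 genes, the 7 pathway lists (Snf1 and glucose signalling, other regulators of nonfermentable carbon use, acetate, ethanol, glycerol and lactate use, other glyoxylate and TCA cycle, reversible glycolytic steps, glycolysis alone, GID ligase) and all rules were chosen with earlier results of these data known. Named were all 10 genes, the altered genes and markers of cell state (IME2 and HXT3), up to 3 list genes with the largest change in each direction (mean TPM of at least 10 in a group), and the 3 genes most like SIP4 and PCK1 (mean TPM of at least 20 in a condition). Libraries with the same replicate number deviated together (every pair over 0.1) in 1 of the 31 comparisons of 2 groups, sfGFP-B112 against B112 at 0 h.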

Additional observations from a re-analysis of the deposited data

Results flagged for a closer look

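The effect of ume6Δ against WT and the effect of 120 min of Ume6 depletion against its control differed by edgeR's quasi-likelihood test of the difference in 6 of the 10 genes. The difference on the log2 scale was 2.79 for SIP4 (adjusted p = 1.28e-08), 1.38 for CAT8 (adjusted p = 7.6e-06), 2.27 for ADR1 (adjusted p = 8.85e-12), 1.62 for ACS1 (adjusted p = 2.84e-05), 0.72 for FBP1 (adjusted p = 0.0493) and 3.01 for SFC1 (adjusted p = 5.03e-07). WT and ume6Δ lacked the degron tag and the LexA construct of the other strains, and this difference in strain cannot be told apart from that between deletion and depletion.

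The change from 2 to 2.5 h in SPO medium differed between Ume6 depletion and control by the same kind of test in 2 of the 10 genes, by -1.20 on the log2 scale for SIP4 (adjusted p = 1.73e-05) and by -1.10 for ACS1 (adjusted p = 0.0048). With only the compared groups in the fit that of ACS1 was lost (-1.09, adjusted p = 0.06). The study describes a passing rise of many early meiotic genes at 2.5 h in these copper-inducible strains, and its part here was not tested.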

How the results depend on the processing

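All 34 counts of called genes stayed within 1.5 times of the reported count with RLE scaling, with no filter and with a replicate block. With DESeq2 1 gene was called in place of 0 for depletion against control at 2.5 h and at 6 h. With the compared groups alone in the fit, 22 of the 144 calls were lost, 25 were gained and 12 counts moved: to 1 from 0 for depletion at 0 min, 8 from 5 at 15 min, 1 from 3 at 2 h, 0 from 2 at 3 h, 1 from 2 for the change from 2 to 2.5 h, 1 from 0 and 2 from 1 for T99N at 2 and 6 h, 8 from 5 for tethering at 6 h, 1 from 6 for sfGFP-IME1 at 0 h, and 5 from 9, 5 from 3 and 6 from 3 for sfGFP-B112 at 0, 2 and 6 h. The cause was not tested. With the exchanged libraries kept under the labels of the counts, 2 genes were called for T99N at 2 h in place of 0. An alternative chosen after seeing the data, without the shallowest library, gave 2 in place of 1 for T99N at 6 h. This alternative also called PCK1 for tethering at 2 h (1.16, adjusted p = 0.034). Leaving out 1 library in turn gave 1 to 2 called genes for depletion at 3 h and 0 to 1 for T99N at 2 h and at 6 h. It gave 2 to 4 for tethering at 0 h and 3 to 5 at 6 h. Each of the 144 calls was refitted without each of its compared libraries in turn. The call was lost in 109 of these 912 refits, and 1 call could be lost in several of them. No call reversed under any alternative run.

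With the replicate block, 1 of the 144 calls was lost, FBP1 in the comparison of ume6Δ with depletion (0.72, adjusted p = 0.0547). Pairing held in 1 comparison, sfGFP-B112 against B112 at 0 h, and there the block changed no call. The block also called 4 genes that the reported fit did not, ADR1 (0.42, adjusted p = 0.042) and ICL1 (-0.59, adjusted p = 0.0408) for depletion at 30 min, PCK1 for control from 2 to 2.5 h (-0.69, adjusted p = 0.0394) and CAT8 for control from 2 to 6 h (-0.19, adjusted p = 0.0483). The SE of MLS1 reached 0.68 on the log2 scale in the comparison of ume6Δ with depletion, and its cause was not tested. In log2(TPM + 1) the median change over all genes was also shifted for tethering (0.22 at 2 h and 0.18 at 4 h, against -0.06 and -0.04 with TMM scaling), for sfGFP-B112 (0.31 at 0 h and 0.24 at 4 h, against -0.06 and -0.04), for sfGFP-IME1 at 0 h (-0.04 against -0.16) and within the control strains from 0 to 120 min (0.17 against 0.00) and from 2 to 2.5 h (0.18 against -0.08).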

Other observations

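Some conditions were in no comparison. At 0.5 h in SPO medium, before depletion, ICL1, MLS1, SFC1, ACS1, MDH2, SIP4 and ADR1 were above their 2 h levels in every library of both strains. CAT8 was above by less, the FBP1 libraries of the 2 times overlapped, and the mean of PCK1 was lower at 0.5 h. In control the 0.5 h levels of ICL1 and MLS1 were also above those at 6 h. SFC1 was at 1839, 1942 and 1889 TPM in control and 2107, 1897 and 1693 TPM in the depletion strain, ICL1 at 3873, 4434 and 4218 TPM and 4567, 4049.8 and 4591 TPM. These levels were not tested against later times.

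In strains of the tethering experiment that were not compared, single libraries stood apart in PCK1, chosen here after its values were seen. PCK1 was at 6893, 5395 and 304 TPM in sfGFP-IME1; UME6 at 0 h and at 4173, 776 and 5729.7 TPM in sfGFP-IME1; UME6(T99N)-3V5 at 0 h. In the strain that holds the shallowest library, sfGFP-IME1; UME6-3V5 at 4 h, it was at 822, 6390.2 and 879.7 TPM, the high value being that library.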
